A study of Homo sapiens with 8 samples.

Results

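The genes described here encode 6 enzymes of cholesterol synthesis and 2 proteins of the sterol-sensing system that sets the transcription of those enzymes. They were chosen by symbol, as a list of sterol pathway genes, and were found through their Ensembl identifiers in the deposited count tables. Earlier results of these data were known at that choice, so the list was not picked blind to them. The 8 members are HMGCS1, IDI1, FDFT1, SQLE, LSS, DHCR7, INSIG1 and SREBF2, out of 60675 genes listed. All 8 passed the filter on low counts and were among the 16661 genes tested. None of the 8 itself takes up cholesterol, so uptake was followed in a separate list of 6 genes.

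Messenger RNA was sequenced in the pancreatic cancer line Panc10.05, an established human cell line, and in cells derived from it that had become resistant to the drug indisulam. This sulfonamide works as a molecular glue, joining the splicing factor RBM39 to a ubiquitin ligase through DCAF15 so that RBM39 is broken down. The design had 4 groups of 2 libraries. Parental untreated cells received no drug, and parental indisulam cells received 2 µM for 18 h. The resistant line was grown out under rising doses over months. Its treated group, resistant indisulam, was kept on 2 µM continuously, and its resistant untreated group came from the same line during a drug holiday. So exposure to the drug differed in length between the lines, and the resistant untreated cells also had a history of exposure. In the resistant line, a rise or fall with indisulam below means higher or lower on the drug than on the holiday. A change on adding the drug cannot be told apart there from one on withdrawing it. Resistant libraries came from this derived line alone, so no value here separates resistance from other features of that line. Since the study describes the libraries within a group as technical replicates, each SD below measures the spread between these libraries. The p-values, SEs and intervals start from that spread, but each gene's variance is also drawn towards that of the other tested genes. Very small p-values therefore rest in part on this shared variance and not on the libraries of that gene alone. How far levels would vary between repeat cultures or separately derived resistant lines cannot be read from them. Panc10.05 is the name in the sample titles, which were followed, although the labels' growth notes name the lung line A549.

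Cells build cholesterol from acetyl-CoA through mevalonate, isoprenoid and squalene intermediates, and then close, trim and reduce the sterol rings. Transcription of this pathway is driven by SREBP-2, the product of SREBF2, which is held in the endoplasmic reticulum by INSIG proteins and SCAP when sterols are plentiful and is carried to the Golgi and cleaved when they run low. The same factor drives genes of lipoprotein uptake, so that synthesis and uptake of cholesterol usually move together, and INSIG1 is itself a target of the pathway it restrains.

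The libraries held 65266253 to 108002436 reads assigned to genes, and 22728 to 25263 genes had at least 1 read. Within groups, log2 values of the libraries correlated across genes at Pearson r = 0.996 to 0.998, and their counts differed by more than sampling noise. The members' log2 values differed between the libraries of a group by at most 0.26, for INSIG1 in resistant untreated cells. All 6 of 6 ductal epithelial markers were detected. Of 4 lung alveolar markers, none reached a mean of 1 CPM (a count per 1000000 reads of the library size, scaled by TMM, the trimmed mean of M values), with NKX2-1 and SFTPB at 0. RBM39 mRNA, which is not the degraded product and so does not check the drug's action on the protein, read 332 and 337 CPM in parental untreated cells, 716 and 731 CPM in parental indisulam cells, 299 and 311 CPM in resistant untreated cells and 577 and 591 CPM in resistant indisulam cells.

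Promoter sequence is shown for 5 members because they span the range of behaviour described below: HMGCS1, INSIG1 and LSS had the larger rises with the drug in the resistant line, DHCR7 did not pass the test with the drug in either line, and SREBF2 encodes the factor itself. The stretches come from RefSeq on GRCh38.p14, are written 5′ to 3′ on the strand of the gene and start 250 bases before the RefSeq transcript start. Each stops before the first annotated exon base, except that of SREBF2, which was ended 41 bases before the start. They are chr5:43313513-43313662 (minus), chr7:155297628-155297775 (plus), chr21:46228825-46229024 (minus), chr11:71448436-71448643 (minus, in an intron of the annotated gene) and chr22:41832855-41833064 (plus). Capitals mark the CCAAT box on either strand, read as ATTGG on the opposite strand and known as the motif of NF-Y, a partner of SREBP, and TCACNCCAC, a form of the sterol regulatory element.
HMGCS1: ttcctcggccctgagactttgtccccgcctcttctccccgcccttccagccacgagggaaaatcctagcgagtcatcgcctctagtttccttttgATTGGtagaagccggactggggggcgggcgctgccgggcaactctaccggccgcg
INSIG1: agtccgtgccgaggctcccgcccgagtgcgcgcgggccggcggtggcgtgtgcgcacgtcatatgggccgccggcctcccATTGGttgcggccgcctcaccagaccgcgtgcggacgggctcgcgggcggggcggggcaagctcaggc
LSS: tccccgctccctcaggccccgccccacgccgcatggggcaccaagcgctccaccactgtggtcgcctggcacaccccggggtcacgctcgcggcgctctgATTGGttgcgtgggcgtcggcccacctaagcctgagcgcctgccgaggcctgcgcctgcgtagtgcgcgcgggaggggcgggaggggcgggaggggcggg
DHCR7: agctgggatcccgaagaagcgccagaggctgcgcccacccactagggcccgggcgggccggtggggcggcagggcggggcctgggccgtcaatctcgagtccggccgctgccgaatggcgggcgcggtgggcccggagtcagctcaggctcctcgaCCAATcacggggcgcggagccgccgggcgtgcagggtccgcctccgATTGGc
SREBF2: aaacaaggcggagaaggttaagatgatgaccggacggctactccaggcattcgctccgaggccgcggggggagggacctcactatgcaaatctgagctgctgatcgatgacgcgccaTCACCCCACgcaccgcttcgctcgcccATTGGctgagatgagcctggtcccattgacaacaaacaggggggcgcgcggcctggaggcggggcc

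In windows from 250 bases before to 50 bases after each RefSeq start, both strands searched, TCACNCCAC occurred in 1 of the 6 members that have a window, SREBF2, where it began 133 bases before the start. It was in 1.13% of the 35116 windows of all genes. CCAAT occurred in at least 1 window of all 6 members and in 34.6% of all windows. GGGCGG, a core that Sp1 binds, occurred in at least 1 window of all 6 and in 45% of all windows. The 6 members have 10 windows between them, so the per-gene and per-window shares are not on the same footing. These matches are descriptions of letters and do not show binding.

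HMGCS1 (ENSG00000112972) is annotated at chr5:43287470-43313512 on the minus strand of GRCh38 and IDI1 (ENSG00000067064) at chr10:1039152-1049119 on the minus strand. FDFT1 (ENSG00000079459) lies at chr8:11795573-11839395 and SQLE (ENSG00000104549) at chr8:124998497-125022283, both on the plus strand. LSS (ENSG00000160285) lies at chr21:46188141-46228824 and DHCR7 (ENSG00000172893) at chr11:71428193-71452868, both on the minus strand. INSIG1 (ENSG00000186480) lies at chr7:155297776-155310235 and SREBF2 (ENSG00000198911) at chr22:41833105-41907306, both on the plus strand. All are protein-coding, and the deposited counts are per gene. An antisense lncRNA overlaps 37.7% of the HMGCS1 exon bases, but it held 1 to 3 reads per library. IDI2-AS1, antisense to IDI1, held 15 to 56 reads, or 0.639% of the pair's reads. The strand setting of the counting is not known. Had strand been ignored, reads in such shared bases could have been set aside as ambiguous, and levels such as that of HMGCS1 would be too low. Ambiguous reads were 4.31% to 4.5% of those that hit genes in each library. SREBF2 hosts MIR33A in an intron, which had 0 reads in these polyadenylated libraries, and the IDI1 pseudogenes IDI1P1, IDI1P2 and IDI1P3 also had 0 reads.

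The members were well expressed. Their mean log2 CPM over the 8 libraries ranked from the 64.5th percentile of the tested genes, for LSS, to the 95.4th, for SQLE. Per kilobase of annotated exon, SQLE stood highest in parental untreated cells at 56.4 ± 0.97 CPM per kb (SD, n = 2), followed by HMGCS1 at 48.0 ± 1.4, FDFT1 at 35.3 ± 1.2 and SREBF2 at 34.7 ± 0.60. DHCR7 at 29.8 ± 0.54, IDI1 at 16.2 ± 0.33, INSIG1 at 15.04 ± 0.73 and LSS at 5.75 ± 0.10 CPM per kb followed. FDFT1 and SREBF2 were within their spread of each other. In resistant untreated cells SREBF2, at 24.6 ± 0.14 CPM per kb, stood above HMGCS1, at 16.5 ± 0.38, the reverse of the parental order. FDFT1, at 17.3 ± 0.84, was within its spread of HMGCS1. Lengths are the merged exons of all transcripts, so values per kilobase depend on which transcripts the cells use.

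The 8 members together took up 1415 and 1368 CPM in parental untreated cells, 1454 and 1444 CPM in parental indisulam cells, 772 and 742 CPM in resistant untreated cells and 902 and 914 CPM in resistant indisulam cells. The resistant libraries were all below the parental ones, and in the resistant line the treated libraries were above the untreated ones.

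**Figure D1:**
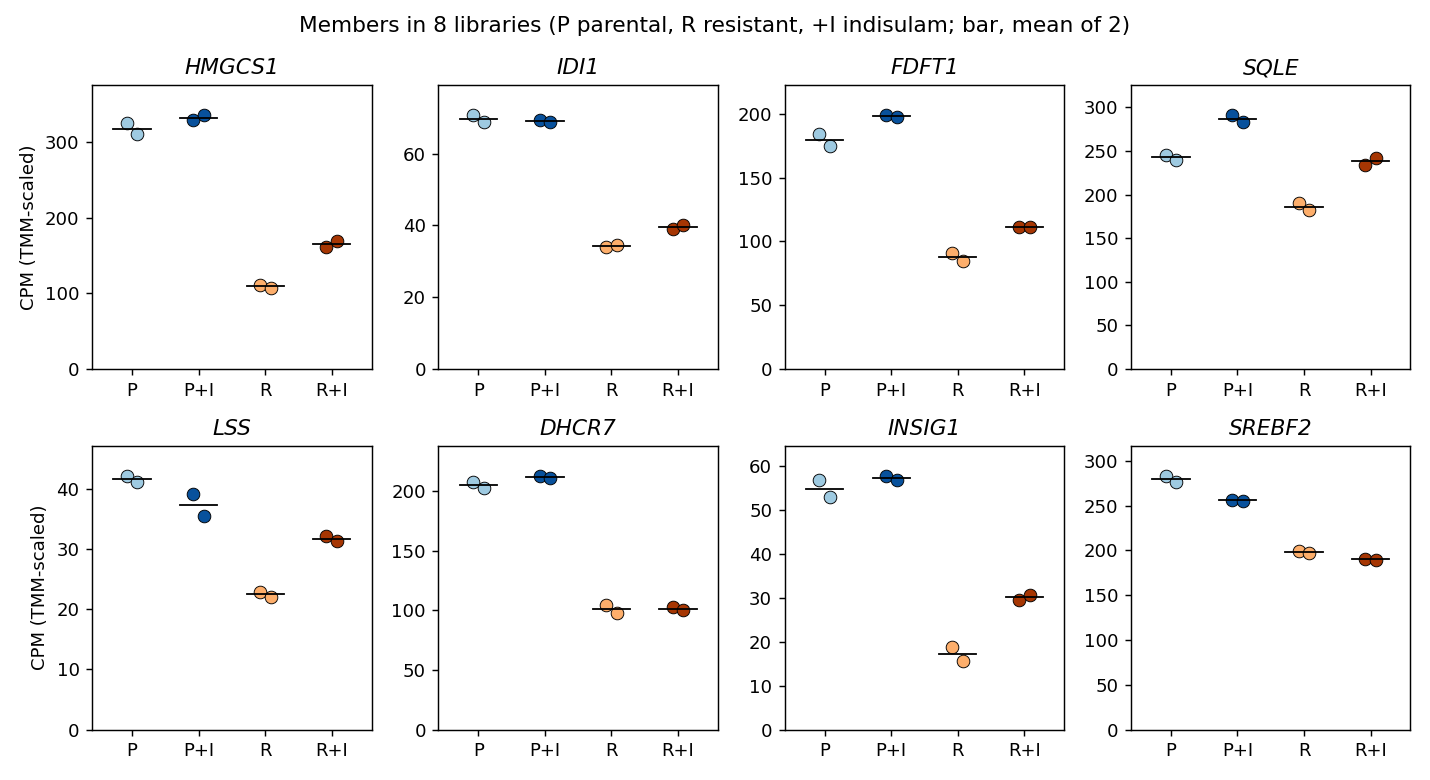
TMM-scaled CPM (y axis, linear from 0) of each member in the 8 libraries, by group on the x axis, where points are libraries and bars are means of 2. The resistant untreated libraries are below the parental untreated libraries for all 8 members, as for 40.9% of tested genes. In the resistant line 6 members are higher with indisulam without overlap, as 37.1% of tested genes are. DHCR7 overlaps (104.7 and 97.9 against 103.1 and 99.99 CPM), and SREBF2 is lower without overlap (199 and 197 against 191 and 190 CPM).

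The comparison of the lines off the drug asks how resistant cells on a drug holiday differ from cells that never met the drug. HMGCS1, which joins acetyl-CoA to acetoacetyl-CoA at the entry to the mevalonate pathway, and INSIG1, the retention protein, were at 0.344 and 0.315 times the parental level in the resistant line. IDI1, FDFT1 and DHCR7 followed at 0.489 to 0.494 times the parental level, then LSS at 0.541, SREBF2 at 0.709 and SQLE at 0.766. All 8 members were called lower. For all genes, 60.1% were called in this comparison, 30.3% higher and 29.9% lower, and the members' median log2 fold change was -1.02 against -0.015 over all tested genes.

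HMGCS1 read 325 and 312 CPM in parental untreated cells and 111 and 108 CPM in resistant untreated cells. INSIG1 read 56.8 and 53.0 CPM in parental and 18.8 and 15.6 CPM in resistant untreated cells. The groups were far apart for both genes, although the INSIG1 libraries of the resistant group differed from each other by more than those of any other member. The log2 fold change was -1.54 (SE 0.032, edgeR quasi-likelihood test, Benjamini-Hochberg adjusted p = 4.8e-22) for HMGCS1 and -1.67 (SE 0.067, adjusted p = 3.8e-09) for INSIG1. Among the tested genes, 1.48% had a larger fall than HMGCS1 and 1.14% a larger fall than INSIG1. Without either resistant untreated library in turn, the log2 fold change of INSIG1 was -1.54 or -1.81.

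IDI1, which isomerises isopentenyl diphosphate so that isoprene units can be joined, read 70.7 and 68.7 CPM in parental untreated cells and 34.0 and 34.6 CPM in resistant untreated cells. FDFT1, squalene synthase and the branch point towards sterols, read 184 and 175 CPM against 90.9 and 84.8 CPM. DHCR7, which reduces 7-dehydrocholesterol to cholesterol, read 208 and 203 CPM against 105 and 97.9 CPM. For these 3 genes the groups did not overlap, and the log2 fold changes lay together, at -1.03 for IDI1 (SE 0.034, edgeR adjusted p = 5.9e-18), -1.03 for FDFT1 (SE 0.033, adjusted p = 3.6e-18) and -1.02 for DHCR7 (SE 0.032, adjusted p = 2.0e-18). LSS, which cyclises oxidosqualene to lanosterol, read 42.1 and 41.1 CPM in parental untreated cells and 22.9 and 22.1 CPM in resistant untreated cells, a log2 fold change of -0.89 (SE 0.044, edgeR adjusted p = 2.3e-14).

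SREBF2 read 283 and 276 CPM in parental untreated cells and 199 and 197 CPM in resistant untreated cells. SQLE, squalene epoxidase and a rate-limiting step after squalene, read 246 and 240 CPM against 190 and 182 CPM. These had the smaller falls of the 8, at -0.50 for SREBF2 (SE 0.027, edgeR adjusted p = 8.5e-14) and -0.38 for SQLE (SE 0.030, adjusted p = 7.7e-11), and 15.7% and 20.5% of tested genes fell further. In all 8 members every resistant library was below every parental one, as it was for 40.9% of the tested genes, while 38.6% were higher without overlap.

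On the drug, the lines were compared between resistant cells kept on 2 µM and parental cells exposed for 18 h. All 8 members were again called lower in the resistant line, in a comparison where 69.5% of tested genes were called and 34.9% were called lower. The members' median log2 fold change was -0.82, against 0.0032 over all tested genes. DHCR7 had the largest fall of the 8, with 213 and 211 CPM in parental indisulam cells and 103 and 99.99 CPM in resistant indisulam cells, a log2 fold change of -1.06 (SE 0.032, edgeR adjusted p = 1.0e-18).

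HMGCS1 read 329 and 336 CPM in parental indisulam cells and 161 and 169 CPM in resistant indisulam cells, and INSIG1 57.7 and 56.9 CPM against 29.5 and 30.7 CPM. LSS read 39.1 and 35.5 CPM against 32.2 and 31.3 CPM. The groups did not overlap for these or the other members, as for 41.8% of tested genes in this direction, but the LSS groups were close. The log2 fold changes were -1.01 for HMGCS1 (SE 0.031, edgeR adjusted p = 1.5e-18), -0.93 for INSIG1 (SE 0.062, adjusted p = 2.3e-07) and -0.23 for LSS (SE 0.043, adjusted p = 4.2e-05). The other 4 members were at -0.83 for FDFT1, -0.80 for IDI1, -0.43 for SREBF2 and -0.27 for SQLE. SQLE in resistant indisulam cells (234 and 242 CPM) overlapped its level in parental untreated cells (246 and 240 CPM).

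The summed level of the 6 ductal epithelial markers also differed between the lines, at 6128 to 6349 CPM over the parental libraries and 10560 to 11944 CPM over the resistant ones. Summed fibroblast markers were at 3.97 to 4.03 CPM in resistant indisulam cells and 1.35 to 1.88 CPM in the other libraries. Nearly all of this sum was COL1A1, at 1.34 to 3.96 CPM over the 8 libraries. COL1A2 reached at most 0.042 CPM and PDGFRB at most 0.059 CPM, with DCN and LUM at 0. Summed leukocyte markers reached at most 0.194 CPM, with PTPRC and CD3E at 0. The part of these marker shifts in the lower sterol gene levels was not tested. In these bulk samples, fewer cells of a kind and less RNA per cell cannot be told apart.

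In parental cells, 18 h of indisulam moved the members little. SQLE and FDFT1 rose, LSS and SREBF2 fell, and the other 4 did not pass the test, so 4 of 8 were called where 58.2% of all tested genes were (31.6% higher and 26.6% lower). The members' median was 0.053 on the log2 scale, against 0.014 over all tested genes. The largest of the 8 log2 changes was 0.24, for SQLE.

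SQLE rose from 246 and 240 CPM to 291 and 283 CPM, a log2 fold change of 0.24 (SE 0.030, edgeR adjusted p = 3.0e-07). FDFT1 rose from 184 and 175 CPM to 199 and 198 CPM (log2 0.14, SE 0.032, edgeR adjusted p = 4.8e-04). LSS fell from 42.1 and 41.1 CPM to 39.1 and 35.5 CPM (log2 -0.16, SE 0.041, edgeR adjusted p = 0.002), and SREBF2 from 283 and 276 CPM to 257 and 256 CPM (log2 -0.13, SE 0.027, edgeR adjusted p = 3.0e-04). The treated and untreated libraries overlapped for IDI1 alone of the 8, with 5 members higher and 2 lower without overlap, HMGCS1, INSIG1 and DHCR7 among the 5 though not called (over all tested genes 41.2% did not overlap and were higher, and 37.6% were lower). The LSS libraries with the drug lay further apart than those without. For the 4 members not called, the 95% intervals of the log2 change ran from 1.9e-05 to 0.13 for HMGCS1, from -0.068 to 0.19 for INSIG1, from -0.078 to 0.052 for IDI1 and from -0.018 to 0.11 for DHCR7. With libraries scaled by their totals alone, the estimates for HMGCS1, INSIG1 and DHCR7 turned negative and IDI1 was called lower.

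In the resistant line, cells on the drug were compared with cells on a drug holiday. There 6 of 8 members were called higher on indisulam and none was called lower. Of all tested genes, 50.7% were called, 24.9% higher and 25.8% lower, and the members' median was 0.35 against 0.0093 over all tested genes on the log2 scale. INSIG1 rose most, followed by HMGCS1, LSS, SQLE, FDFT1 and IDI1. Even so, apart from SQLE, these members stayed below the parental untreated libraries.

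INSIG1 read 18.8 and 15.6 CPM off the drug and 29.5 and 30.7 CPM on it. HMGCS1 read 111 and 108 CPM off the drug and 161 and 169 CPM on it. LSS read 22.9 and 22.1 CPM off the drug and 32.2 and 31.3 CPM on it. In each of the 3, both treated libraries were above both untreated ones. The log2 fold change was 0.80 for INSIG1 (SE 0.072, edgeR adjusted p = 5.7e-06), 0.59 for HMGCS1 (SE 0.032, adjusted p = 3.1e-13) and 0.49 for LSS (SE 0.046, adjusted p = 5.2e-09). Among tested genes, 6.73% rose more than INSIG1, 10.4% more than HMGCS1 and 13.1% more than LSS. Without the first or the second resistant untreated library, the value for INSIG1 was 0.95 or 0.68.

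SQLE read 190 and 182 CPM off the drug and 234 and 242 CPM on it (log2 0.36, SE 0.030, edgeR adjusted p = 9.2e-10). FDFT1 read 90.9 and 84.8 CPM against 111 and 111 CPM (log2 0.34, SE 0.034, edgeR adjusted p = 1.2e-08). IDI1 read 34.0 and 34.6 CPM against 38.9 and 40.1 CPM (log2 0.21, SE 0.036, edgeR adjusted p = 3.8e-05). These rises were smaller than those of INSIG1 and HMGCS1, and again no library of the 2 groups overlapped, which held in the higher direction for 37.1% of all tested genes. DHCR7 read 105 and 97.9 CPM off the drug and 103 and 99.99 CPM on it, and its 95% interval ran from -0.066 to 0.070 on the log2 scale. SREBF2 read 199 and 197 CPM against 191 and 190 CPM, lower without overlap as 35.9% of tested genes were, with a log2 fold change of -0.06 (95% interval -0.12 to -0.0031) and an edgeR adjusted p of 0.073.

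**Figure D2:**
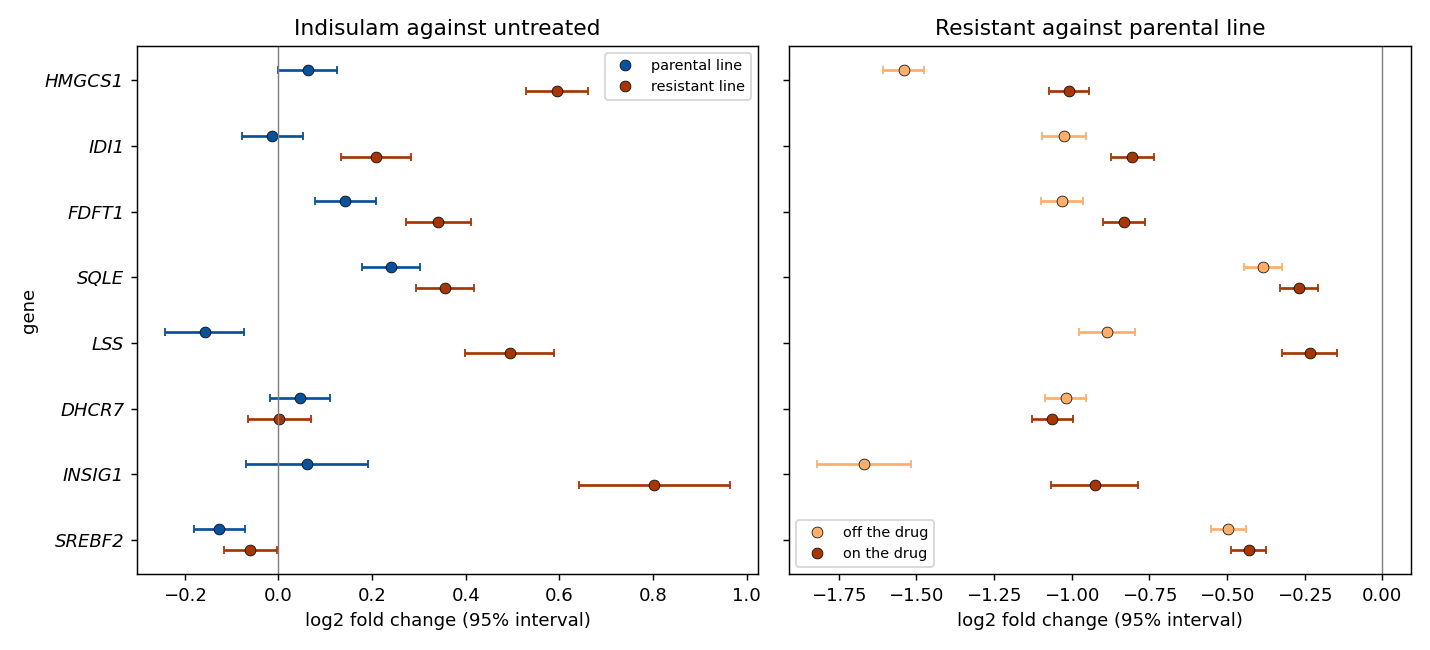
Log2 fold change (x axis) of each member (rows) with its 95% interval from the edgeR fit: indisulam against untreated in each line on the left, resistant against parental line off and on the drug on the right. INSIG1 (0.80), HMGCS1 (0.59) and LSS (0.49) have the larger rises in the resistant line, and on the right all 8 lie below 0 off and on the drug. The parental estimates for HMGCS1, INSIG1, IDI1 and DHCR7 are near 0 and change sign under some alternatives.

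The difference of the drug responses (resistant minus parental, on the log2 scale) was tested as an interaction. It was called higher for 6 members and lower for none, where 50.1% of tested genes were called, 22.7% higher and 27.5% lower. It was 0.74 for INSIG1 (SE 0.092, edgeR adjusted p = 8.2e-05), 0.65 for LSS (SE 0.061, adjusted p = 1.7e-08) and 0.53 for HMGCS1 (SE 0.044, adjusted p = 1.9e-09). LSS was lower with the drug in parental and higher in resistant cells. The difference was 0.22 for IDI1 (adjusted p = 5.1e-04), 0.20 for FDFT1 (adjusted p = 9.9e-04) and 0.12 for SQLE (adjusted p = 0.027). SQLE was not called when the first parental untreated library or the second library of any other group was left out (0.096 to 0.12), or with DESeq2 (0.10). For DHCR7 the 95% interval of the difference ran from -0.14 to 0.050, and for SREBF2 from -0.013 to 0.15. The members' median was 0.21 against 0.010 over all tested genes. With library totals alone that all-gene median moved to 0.13, and the share of calls that were higher moved from 45.2% to 65.8%. The corresponding shares moved from 54.3% to 42.0% for the parental and from 49.1% to 59.7% for the resistant drug response. The same libraries enter the drug responses and the line comparisons alike, so these are not independent views of the same genes.

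**Figure D3:**
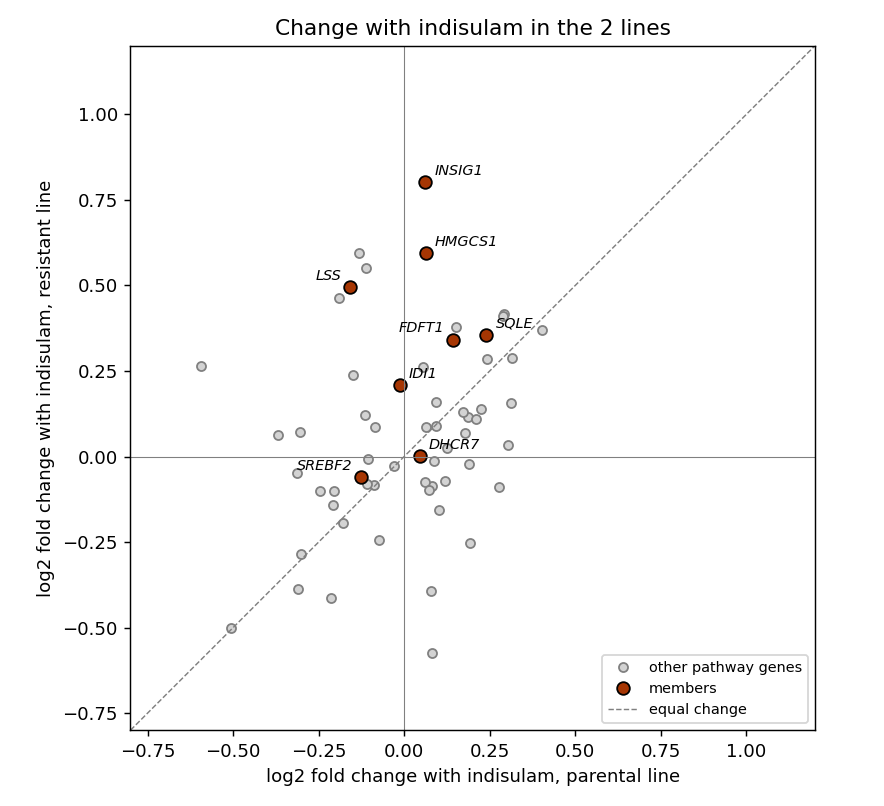
Log2 fold change with indisulam in the parental line (x axis) against that in the resistant line (y axis) for the 8 members (red, named) and 52 other pathway genes tested (grey), with a dashed line at equal change. INSIG1 (0.06 and 0.80), HMGCS1 (0.06 and 0.59) and LSS (-0.16 and 0.49) lie well above the line, DHCR7 and SREBF2 near it.

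The other genes of the pathway came from lists of 56 genes, of which 52 were tested. ABCG1, SOAT2, CH25H and CYP27A1 held at most 14 reads in any library and were not. Over all tested genes, the shares called higher and lower between the lines were 30.3% and 29.9% off the drug and 34.6% and 34.9% on it. With indisulam they were 31.6% and 26.6% in parental and 24.9% and 25.8% in resistant cells. For the difference of the responses they were 22.7% and 27.5%. The list counts below stand beside these shares, and counts near them do not set a list apart. Of the 14 other synthesis enzymes, 13 were lower in the resistant line off the drug and none was higher, with a median log2 fold change of -0.46. PMVK, the phosphomevalonate kinase and the exception, was not called, at 0.09 (edgeR adjusted p = 0.14). MSMO1, a sterol methyl oxidase, had 299 and 290 CPM in parental and 119 and 110 CPM in resistant untreated cells (log2 -1.36, edgeR adjusted p = 1.6e-13), and HSD17B7, the keto reductase that works in the same demethylation of sterols, had a log2 fold change of -1.05 (adjusted p = 3.9e-12). In the order of the pathway, the falls were not uniform, since enzymes between HMGCS1 and LSS ranged from 0.09 for PMVK to -1.03 for FDFT1 and IDI1.

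**Figure D4:**
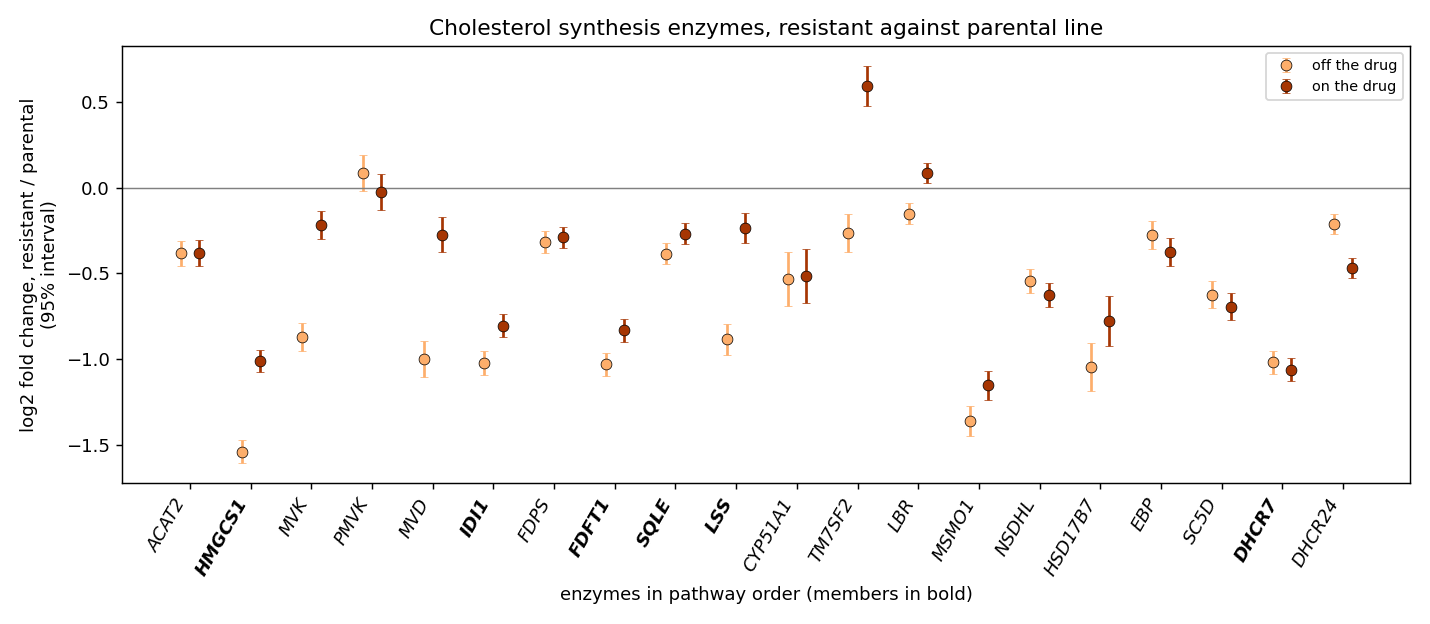
Log2 fold change of the resistant against the parental line (y axis, bars are 95% intervals) for 20 synthesis enzymes in pathway order (x axis, members in bold), off and on the drug. Off the drug 19 lie below 0 and PMVK (0.09) above it, and on the drug TM7SF2 (0.60) and LBR (0.09) are called higher.

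On the drug, 11 of these 14 enzymes were lower in the resistant line and 2 were higher, with a median of -0.38 on the log2 scale. MSMO1 was at -1.15 (edgeR adjusted p = 8.4e-13) and HSD17B7 at -0.78 (adjusted p = 1.1e-09). The 2 that were higher, named after their values were seen, were TM7SF2 at 0.60 (edgeR adjusted p = 2.1e-09) and LBR at 0.09 (adjusted p = 0.0095). These are the alternative sterol C14 reductases. TM7SF2 shares 18 exon bases with VPS51, whose reads made up 85.6% of the pair, so its count is less certain.

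With indisulam, 5 of the 14 rose and 7 fell in parental cells, and 7 rose and 2 fell in resistant cells. In parental cells TM7SF2 fell by 0.59 (edgeR adjusted p = 4.0e-09) and HSD17B7 by 0.31 (adjusted p = 1.2e-04). In resistant cells the mevalonate pathway decarboxylase MVD read 27.4 and 30.0 CPM on the holiday and 44.01 and 42.5 CPM on the drug (log2 0.59, edgeR adjusted p = 8.3e-08). The mevalonate kinase MVK was higher on the drug by 0.46 (edgeR adjusted p = 3.2e-09). Its antisense neighbour MMAB took 55.2% of that pair's reads, where the strand setting of the counting is not known. The difference of the responses was called higher for 6 of the 14 and lower for 1, led by TM7SF2 (0.86, edgeR adjusted p = 8.5e-09) and MVD (0.73, adjusted p = 4.1e-07).

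Among 6 uptake genes, 5 were lower in the resistant line off the drug and none was higher. On the drug, 4 were lower and 1 was higher. The list mixes lipoprotein receptors, lysosomal genes and a ubiquitin ligase, so these counts give no direction of uptake. LIPA, the lysosomal acid lipase, was at -0.62 off (edgeR adjusted p = 1.6e-13) and -0.71 on the drug (adjusted p = 8.3e-15). NPC2, a lysosomal cholesterol carrier, was at -0.34 off the drug (edgeR adjusted p = 9.1e-09), and MYLIP, a ubiquitin ligase, at -0.43 on it (adjusted p = 1.1e-08). In the drug responses, 3 uptake genes rose and 2 fell in parental cells, and 2 rose and none fell in resistant cells. NPC2 rose in both, by 0.29 in parental (edgeR adjusted p = 1.4e-07) and 0.42 in resistant cells (adjusted p = 1.1e-09), and NPC1, which takes cholesterol over from NPC2, rose by 0.38 in resistant cells (adjusted p = 1.4e-09). VLDLR, the very-low-density lipoprotein receptor, fell in parental cells (-0.31, edgeR adjusted p = 6.5e-04). The difference of the responses was called higher for 3 of the 6 and lower for none, with VLDLR at 0.38 (edgeR adjusted p = 0.0035) and NPC1 at 0.23 (adjusted p = 2.4e-04). LIPA has 2 antisense neighbours, IFIT2 with 42.4% and IFIT3 with 37.3% of the reads of its pair with LIPA. Antisense neighbours took 26.8% of the pair's reads for NPC2 (ISCA2) and 19.5% for NPC1 (RMC1).

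Of the 9 genes listed as SREBP regulators, off the drug 5 were higher and 2 lower in the resistant line. On the drug, 1 was higher and 6 were lower. The list mixes the escort SCAP, the retention protein INSIG2, proteases and SREBF1 itself, so these counts give no direction for SREBP processing. SPRING1, needed for the protease that cleaves SREBPs, was lower both off (-0.73, edgeR adjusted p = 2.5e-15) and on the drug (-0.75, adjusted p = 6.7e-16). SREBF1, the sister gene of SREBF2 known for fatty acid synthesis, was at -0.25 off (edgeR adjusted p = 5.7e-06) and 0.14 on the drug (adjusted p = 0.0033). SCAP, the escort of the SREBPs, had 73.5 and 72.4 CPM in parental untreated cells, 63.4 and 62.5 CPM in parental indisulam cells, 79.2 and 77.4 CPM in resistant untreated cells and 61.0 and 56.9 CPM in resistant indisulam cells.

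SCAP was lower with the drug in each line, by a log2 fold change of -0.21 in parental (edgeR adjusted p = 9.8e-06) and -0.41 in resistant cells (adjusted p = 7.0e-10). MBTPS2, a protease that releases SREBPs, fell in resistant cells (-0.39, edgeR adjusted p = 1.1e-09), and SPRING1 (0.32, adjusted p = 8.5e-09) and RNF145 (0.31, adjusted p = 2.5e-08) rose in parental cells. With indisulam SREBF1 fell by 0.15 in parental (edgeR adjusted p = 0.0019) and rose by 0.24 in resistant cells (adjusted p = 2.2e-05), with a difference of 0.39 (adjusted p = 3.8e-06). RAI1, antisense to SREBF1, took 44.9% of that pair's reads. In all, 6 regulators rose and 3 fell with the drug in parental cells, 4 rose and 4 fell in resistant cells, and the difference was called higher for 1, SREBF1, and lower for 5, among them RNF139 (-0.21, edgeR adjusted p = 0.0014), whose antisense neighbour TATDN1 took 37.3% of that pair's reads.

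Of the 5 tested genes of efflux, storage and oxysterols, 1 was higher and 4 were lower in the resistant line off the drug, and 1 was higher and 3 were lower on it. The higher gene was ABCA1, the cholesterol exporter, at 0.63 off (edgeR adjusted p = 2.4e-08) and 0.68 on the drug (adjusted p = 4.2e-09), with 6.75 and 6.63 CPM in parental and 9.60 and 11.2 CPM in resistant untreated cells. NCEH1, which hydrolyses stored cholesteryl esters, was at -0.60 off (edgeR adjusted p = 1.1e-14) and -0.63 on the drug (adjusted p = 2.4e-15). With the drug, NCEH1 rose by 0.40 in parental (edgeR adjusted p = 4.4e-11) and 0.37 in resistant cells (adjusted p = 4.0e-10). In this list 3 genes rose and 1 fell in parental cells, NR1H3 at -0.37 (edgeR adjusted p = 1.0e-05), and 2 rose and 1 fell in resistant cells, ABCA1 rising by 0.28 (adjusted p = 8.1e-04). The difference was called higher for 1, NR1H3 (0.43, edgeR adjusted p = 2.4e-04), and lower for 1, NR1H2 (-0.45, adjusted p = 4.5e-05). NR1H3 and NR1H2 encode the liver X receptors, and ACP2, antisense to NR1H3, took 85.0% of that pair's reads.

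In the branches that draw on mevalonate for products other than sterols, off the drug 5 of 9 genes were higher and 1 was lower in the resistant line, led by PGGT1B (0.72, edgeR adjusted p = 1.1e-13) and FNTA (0.26, adjusted p = 3.8e-06), subunits of protein prenyltransferases. On the drug 3 were higher and 6 lower, with PGGT1B at 0.79 (edgeR adjusted p = 2.0e-14) and PDSS2 at -0.44 (adjusted p = 5.4e-08). With indisulam PDSS1, which makes the tail of coenzyme Q, was at -0.51 in parental (edgeR adjusted p = 5.2e-08) and -0.50 in resistant cells (adjusted p = 7.9e-08), and its partner PDSS2 at -0.57 in resistant cells (adjusted p = 1.6e-09). ABI1, antisense to PDSS1, took 79.8% of that pair's reads. NUS1, a subunit of the enzyme that builds dolichol, rose by 0.30 in parental cells (edgeR adjusted p = 6.3e-08). In all 2 rose and 2 fell in parental cells, 1 rose and 5 fell in resistant cells, and the difference was higher for 1 and lower for 5, led by PDSS2 (-0.66, edgeR adjusted p = 6.5e-08) and FNTA (-0.47, adjusted p = 4.7e-07).

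In fatty acid synthesis, a pathway that SREBP-1 serves, FADS1 had 4.82 and 4.73 CPM in parental untreated cells, 3.95 and 3.80 CPM in parental indisulam cells, 30.4 and 29.0 CPM in resistant untreated cells and 23.6 and 25.1 CPM in resistant indisulam cells. This delta-5 desaturase was far higher in every resistant library, at 2.64 off (edgeR adjusted p = 3.2e-22) and 2.66 on the drug (adjusted p = 4.1e-21), and FADS2 was at 0.97 (adjusted p = 4.8e-06) and 1.09 (adjusted p = 5.7e-07). FADS2 overlaps FEN1, which took 98.3% of that pair's reads, and it is antisense to FADS1, with 18.6% of their shared total. Yet 6 of the 9 genes were lower and 2 higher off the drug, and 4 were lower and 4 higher on it. With indisulam 2 rose and 5 fell in parental cells, with FADS1 at -0.30 (edgeR adjusted p = 0.0013) and ACSS2 at -0.21 (adjusted p = 1.4e-05), and 5 rose and 3 fell in resistant cells, with SCD at 0.55 (adjusted p = 6.9e-13) and FADS2 at 0.41 (adjusted p = 0.0082). The difference was called higher for 2, SCD (0.66, edgeR adjusted p = 4.9e-11) and ACLY (0.17, adjusted p = 9.8e-04), and lower for none.

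The members also differed among themselves. The distance of each from the members' median profile, as a root mean squared difference of centred log2 CPM over the 8 libraries, was 0.049 for IDI1 and 0.056 for FDFT1, 0.13 for DHCR7, 0.20 for LSS, 0.23 for HMGCS1, 0.25 for SREBF2, 0.29 for SQLE and 0.29 for INSIG1. Over all tested genes its median was 0.49. The members' median profile was made from these same 8 genes, so they lie nearer to it partly by construction. The span between the highest and lowest library was 1.88 for INSIG1 and 1.64 for HMGCS1, and 0.68 for SQLE and 0.58 for SREBF2, against a median of 0.70 over all tested genes on the log2 scale. INSIG1 and HMGCS1 thus had the steepest profiles and SREBF2 the flattest.

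Among 9028 tested genes outside the lists with a symbol and a mean log2 CPM of at least 3, the profile closest to the members' median was that of GDF11, at a root mean squared difference of 0.049 over the 8 libraries, followed by SMARCA2 at 0.051, FOXO1 at 0.063, PLIN3 at 0.066 and ODF2 at 0.067. The closest to INSIG1 were DANCR at 0.12, TNFAIP8L1 at 0.12 and BSPRY at 0.15. With 4 groups and so many candidates, the likeness is a description of these libraries.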

How the data were processed

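Stranded, paired-end libraries were made from polyadenylated RNA, 8 libraries that the labels put in 4 groups of 2. The authors trimmed reads with SeqPurge and aligned them to GRCh38 with HISAT2 2.2.1, and the submitters' processing notes also name Picard and HTSeq. The strand setting and annotation release of the counting are not given in the sources used here. The deposited values are raw counts per Ensembl gene, with duplicate reads (14.1% to 18.4% of all) and reads of low mapping quality (7.55% to 8.25%) set aside by the authors. The lines for unassigned reads were left out of library sizes, and reads outside genes were 4.52% to 6.07%. GENCODE release 44 matched 60419 of 60675 identifiers and gave symbols and positions. The depth of 65266253 to 108002436 reads bounds counting error only, since reads lacking molecular identifiers cannot be taken as separate molecules.

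The counts were fitted with edgeR 4.0.16 in R 4.3.3 (filterByExpr, TMM scaling, robust quasi-likelihood fit of 4 group means to all 8 libraries, 4 residual degrees of freedom), and 16661 genes were tested. The quasi-likelihood fit shrinks each gene's variance towards a value shared over the tested genes. The tests and intervals therefore use more degrees of freedom than the 4 residual ones. A gene was called at an adjusted p under 0.05 (Benjamini-Hochberg, over all tested genes). Fold changes are on the log2 scale, and CPM (counts per 1000000 reads) uses TMM-scaled library sizes. Standard errors are the fold change divided by the root of the F statistic. An exact permutation test of 2 against 2 libraries cannot go below p = 0.333, so none was run. The fit was tested on simulated data.

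The members and lists were chosen with earlier results of these data known. Some genes of the pathway are not reported here and were left out of the lists. The genes named are the 8 members, SREBF1, SCAP and RBM39, and in each pathway list and comparison the 2 called genes with the largest absolute log2 fold change, plus the nearest profiles (5 to the members' median and 3 to INSIG1). Outside this rule, PMVK in the comparison of the lines off the drug and TM7SF2 and LBR in that on the drug were named after their values were seen, and neighbouring genes are named for overlap. Alternatives were DESeq2 1.42.0 (size factors or its Wald test), scaling by library totals alone, a fit of the compared groups by themselves, a replicate block, testing genes unfiltered or from a mean CPM of 1 upwards, a minimum change of 0.5 log2 units (glmTreat), an adjusted p under 0.01, thinning to the smallest library, and leaving out each library. Groups share replicate numbers, but the correlation of same-numbered deviations across genes ran from -0.058 to 0.027 over 6 pairs of groups, so the numbers were not taken as pairs. Promoter windows were those of the RefSeq table for GRCh38.p14.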

Additional observations from a re-analysis of the deposited data

Results flagged for a closer look

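For 6 members indisulam moved the lines differently by the test of the difference itself (resistant minus parental, log2 scale, edgeR interaction), all 6 higher, where 50.1% of tested genes were called, 22.7% higher and 27.5% lower. The difference was 0.74 for INSIG1, 0.65 for LSS, 0.53 for HMGCS1, 0.22 for IDI1, 0.20 for FDFT1 and 0.12 for SQLE. The SQLE call was lost with DESeq2 (0.10) and on leaving out any of 4 single libraries (0.096 to 0.12). For LSS the called changes had opposite signs in the lines. The lines also differed in how long they had been on the drug, so line and length of exposure cannot be told apart.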

How the results depend on the processing

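Of 712 member changes recomputed under 18 alternatives, 669 kept their direction and their side of the threshold, 25 were no longer called, 4 became called and 14 changed sign. The sign changes were in values near 0 that were not called. In parental cells with library totals alone the log2 changes were -0.0040 for HMGCS1, -0.0053 for INSIG1 and -0.021 for DHCR7, and DHCR7 was at -0.011 with genes of a mean CPM of at least 1. DHCR7 in resistant cells was at -0.0028 with DESeq2 size factors, -0.0026 with its Wald test, -0.0051 without a filter and -0.00041 with only these groups, and its difference of responses was 0.072 with library totals alone and 0.041 with a mean CPM of at least 1. Leaving out single libraries, IDI1 in parental cells ran from -0.038 to 0.0084, DHCR7 in resistant cells from -0.052 to 0.055 and the difference for DHCR7 from -0.077 to 0.030.

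Against a minimum change of 0.5 log2 units (glmTreat, adjusted p under 0.05), 0 members were called in parental cells, 2 in resistant cells, 6 and 5 between the lines off and on the drug, and 1, LSS, for the difference. Of the pathway lists, 0 genes were called in parental and 0 in resistant cells, 11 and 12 between the lines off and on the drug, and 4 for the difference. Of all tested genes it called 1042, 879, 2582, 3509 and 908, in the same order, against 9690, 8446, 10021, 11579 and 8351. With the replicate number as a block, the members called stayed 4 in parental cells, 6 in resistant cells, 8 and 8 between lines and 6 for the difference. Of all 16661 tested genes, the fit with this block called 9537, 8319, 9865, 11472 and 8206, in the same order. The SREBF2 difference became called with library totals alone, a mean CPM of at least 1 and thinning. With 2 libraries a group, the spread between libraries limits the precision given here. Variation between repeat cultures or separately derived resistant lines cannot be read from that spread. The members held at least 1016 reads in every library.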
